A study of Mus musculus with 43 samples.

Results

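Retinal transcripts of 10 genes of the receptors and ligands by which phagocytes take up dying cells and shed photoreceptor tips were examined, as the rows of the deposited count table with the symbols Mertk, Axl, Tyro3, Gas6, Pros1, Mfge8, Itgav, Itgb5, Cd36 and Scarb1. All 10 were found among the 54532 genes of the table, and all 10 were among the 18197 genes with enough counts to be tested. The counts came from bulk RNA sequencing of retina in a mouse model of laser-induced choroidal neovascularization (CNV), in which laser burns rupture the membrane under the retina and new vessels grow from the choroid. All mice were C57BL/6J and 9 weeks old at the laser lesion, and the controls were lasered too, so no group was without a lesion. Treated mice drank water with short-chain fatty acids (SCFA, 67.5 mM sodium acetate, 40 mM sodium propionate and 25 mM sodium butyrate) from 3 weeks before the laser until collection, and controls drank water without SCFA. The gram amounts given beside these doses put butyrate above propionate, so the doses of those salts are uncertain. Retinas came from males and females at day 3, 7 or 14 after the laser (dpl), which makes 12 groups of 3 to 5 libraries and 43 libraries in all. Each library was a pool of 2 retinas from different animals of one group, so a value is already a mean over animals.

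Cells that die expose phosphatidylserine on their surface, and phagocytes recognise it through bridging proteins. Gas6 and protein S (Pros1) link it to the receptor tyrosine kinases Tyro3, Axl and Mertk, known together as TAM receptors, and Mfge8 links it to integrins that contain the αv subunit (Itgav), such as αvβ5 with Itgb5. The retinal pigment epithelium uses αvβ5 to bind shed outer segment tips and Mertk to engulf them, microglia use the same receptors on debris, and Cd36 and Scarb1 are class B scavenger receptors for oxidised lipids and lipoproteins.

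The sequences around the transcription start sites of Axl, Tyro3, Gas6 and Itgav, TAM receptors and ligand that were lower and an integrin subunit that was higher with SCFA, are printed to show how members differ in base composition. They are RefSeq promoters on GRCm38.p6 300 bases long and spanning the start, 5′ to 3′ on the strand of the gene, and capitals mark each GC box, GGGCGG or its reverse complement.
Axl, chr7:25788684-25788983, minus strand: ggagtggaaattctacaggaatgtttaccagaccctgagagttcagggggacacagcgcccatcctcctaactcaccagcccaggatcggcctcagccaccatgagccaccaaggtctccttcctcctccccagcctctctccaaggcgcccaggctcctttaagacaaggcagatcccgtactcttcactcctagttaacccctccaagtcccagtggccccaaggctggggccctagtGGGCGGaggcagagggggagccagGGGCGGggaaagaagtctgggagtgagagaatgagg
Tyro3, chr2:119799264-119799563, plus strand: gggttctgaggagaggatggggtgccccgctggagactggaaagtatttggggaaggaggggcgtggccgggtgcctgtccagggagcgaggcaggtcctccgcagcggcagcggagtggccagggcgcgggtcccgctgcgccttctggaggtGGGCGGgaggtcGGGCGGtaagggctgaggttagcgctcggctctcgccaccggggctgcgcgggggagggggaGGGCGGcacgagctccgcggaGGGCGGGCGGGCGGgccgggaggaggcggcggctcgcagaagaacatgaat
Gas6, chr8:13494486-13494785, minus strand: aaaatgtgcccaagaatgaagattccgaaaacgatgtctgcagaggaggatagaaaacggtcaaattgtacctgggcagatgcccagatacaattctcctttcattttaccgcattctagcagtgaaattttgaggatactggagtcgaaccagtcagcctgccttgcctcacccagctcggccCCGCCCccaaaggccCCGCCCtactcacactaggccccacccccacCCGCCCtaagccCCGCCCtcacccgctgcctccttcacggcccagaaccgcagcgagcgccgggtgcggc
Itgav, chr2:83724147-83724446, plus strand: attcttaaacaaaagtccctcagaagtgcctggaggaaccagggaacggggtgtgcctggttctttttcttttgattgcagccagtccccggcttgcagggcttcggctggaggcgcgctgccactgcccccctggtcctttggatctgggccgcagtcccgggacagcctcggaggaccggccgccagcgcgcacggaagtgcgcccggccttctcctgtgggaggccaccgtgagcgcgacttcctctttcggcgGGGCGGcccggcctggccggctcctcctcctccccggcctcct

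The Tyro3 promoter held 6 GC boxes, some of them overlapping, that of Gas6 held 4, that of Axl 2 and that of Itgav 1. Such a box was in 35.9% of the 27025 RefSeq promoters of this length, and 9 members matched the table, each with at least 1 box. GC content was 73.3% for the Tyro3 promoter, 67.3% for Itgav, 60.3% for Axl and 58.3% for Gas6, against a median of 52.7% over all promoters. The other motifs searched on both strands, TGANTCA of AP-1 (7.93% of promoters), CACGTG of E-box factors (7.24%) and the DR4 element of nuclear receptors (0.0111%), did not occur in the windows of the 9 members. The longest transcripts of Gas6, Tyro3 and Axl had 56.6%, 55.4% and 54.2% GC, and those of Itgav and Scarb1 43.5% and 48.5%, against a median of 49.4% for the tested genes.

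Library totals ran from 14826957 to 21507527 counts (median 17683615). The columns of the count table come in a first run of 31 and a second run of 12, a split that the sources do not explain, and 15 control and 16 SCFA libraries were in the first run against 4 and 8 in the second. The run was therefore a term of the fits unless another setting is named. Second-run controls were males at 3 dpl and females at 14 dpl only, while second-run SCFA libraries also came from males at 7 dpl and females at 3 and 7 dpl. Second-run medians thus compare unlike strata, and fold changes of the second run cover only the 2 strata with both groups. The defining markers of rods, Müller glia, microglia and retinal pigment epithelium were above 0 in every library, with the pigment epithelium marker Rpe65 at 4.07 to 166 library-scaled counts (CPM). 5 libraries stood apart: mitochondrial mRNA took 13.8% and 14.8% of the counts in male SCFA replicates 1 and 3 at 7 dpl and 11.5% in female SCFA replicate 3 at 3 dpl, lens genes took 15% in female SCFA replicate 2 at 3 dpl, and female control replicate 2 at 7 dpl carried Y-linked transcripts. Member results that passed the test for SCFA are given with and without some or all of them, and results of the other gene lists only with them. In bulk retina, fewer cells of a type and less RNA per cell cannot be told apart.

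The ligands Gas6 and Mfge8 were the most abundant members. Per kb of exon, Gas6 had a median of 97.2 CPM and Mfge8 of 91.5 over the 43 libraries, followed by Scarb1 (15.2), Itgb5 (13), Pros1 (5.07), Tyro3 (4.10), Itgav (4.01), Axl (3.49), Mertk (1.95) and Cd36 (0.884). Mfge8 was above Scarb1, and Itgb5 above Pros1, in 43 of 43 libraries with no overlap of their ranges. Axl was also above Mertk, and Mertk above Cd36, in 43 of 43, though their ranges overlapped. The other neighbours changed places between libraries, and Gas6 was above Mfge8 in 26 of 43 and Tyro3 above Itgav in 20 of 43. Counts ran from 3542 to 12485 per library for Mfge8 but from 94 to 241 for Mertk and from 23 to 113 for Cd36. Gas6 varied least over the libraries, 1.97-fold from lowest to highest, and Itgb5 most, 5.21-fold.

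**Figure D1:**
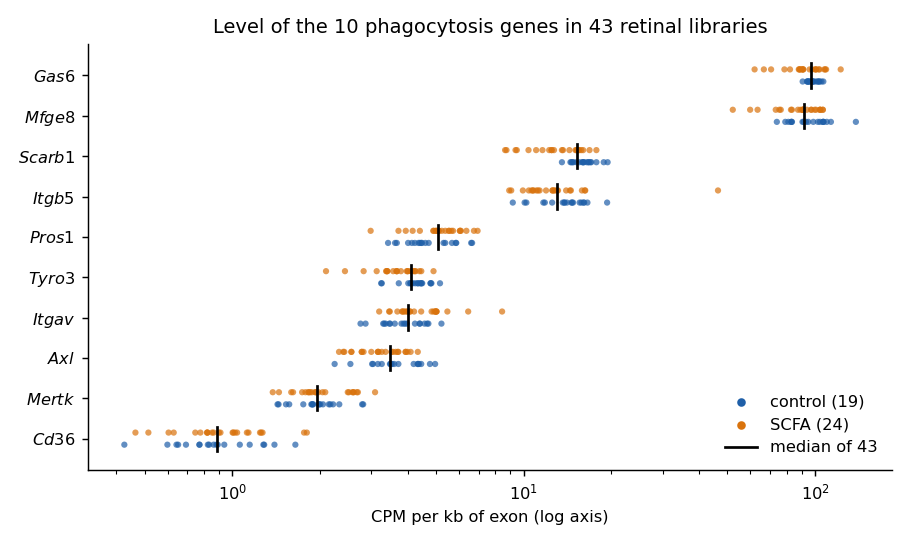
CPM per kb of exon (log axis) of each member in the 19 control (blue) and 24 SCFA libraries (orange), with the median of the 43 libraries as a black line. Gas6 and Mfge8 lie highest, with medians of 97.2 and 91.5, and Cd36 lowest at 0.884, and 1 SCFA library stands far to the right for Itgb5.

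The first comparison asked whether SCFA changed the members over both sexes and all days, as the mean of the 6 differences between SCFA and control groups. 5 of the 10 members passed edgeR's quasi-likelihood test at an adjusted p under 0.1, against 34.7% of all tested genes, so calls were common throughout. Scarb1, Tyro3, Axl and Gas6 fell and Itgav rose. Mertk, Pros1, Mfge8, Itgb5 and Cd36 did not pass. The changes were small, and no member passed an absolute log2 fold change of 1, which 0.703% of all genes did. DESeq2 called 5 of 10 too, against 35.8% of all genes. Over the strata, the median log2 fold change was -0.11 for the 10 members and 0.0031 for all tested genes. The comparisons of treatments and of sexes share control libraries.

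The libraries also differed in how their counts followed base composition. For each library, the deviation of a gene's log2 CPM from the mean of the libraries was correlated with the gene's transcript GC content over 13493 genes, which are not independent replicates. The median coefficient was 0.247 in first-run controls and -0.164 in first-run SCFA libraries, but 0.0415 and 0.0375 in the second run. The members were therefore fitted again with each library's GC trend removed as an offset, and then 1 of the 10, Scarb1, was called, against 25.5% of all genes. Without the 5 libraries that stand apart 4 of 10 were called, all but Gas6 of those named, against 28.8%. With the GC trend removed, the mean log2 fold changes of the members not called were -0.046 for Mfge8, 0.021 for Mertk, -0.012 for Pros1, 0.022 for Itgb5 and -0.131 for Cd36, with edgeR adjusted p from 0.552 to 0.936.

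**Figure D2:**
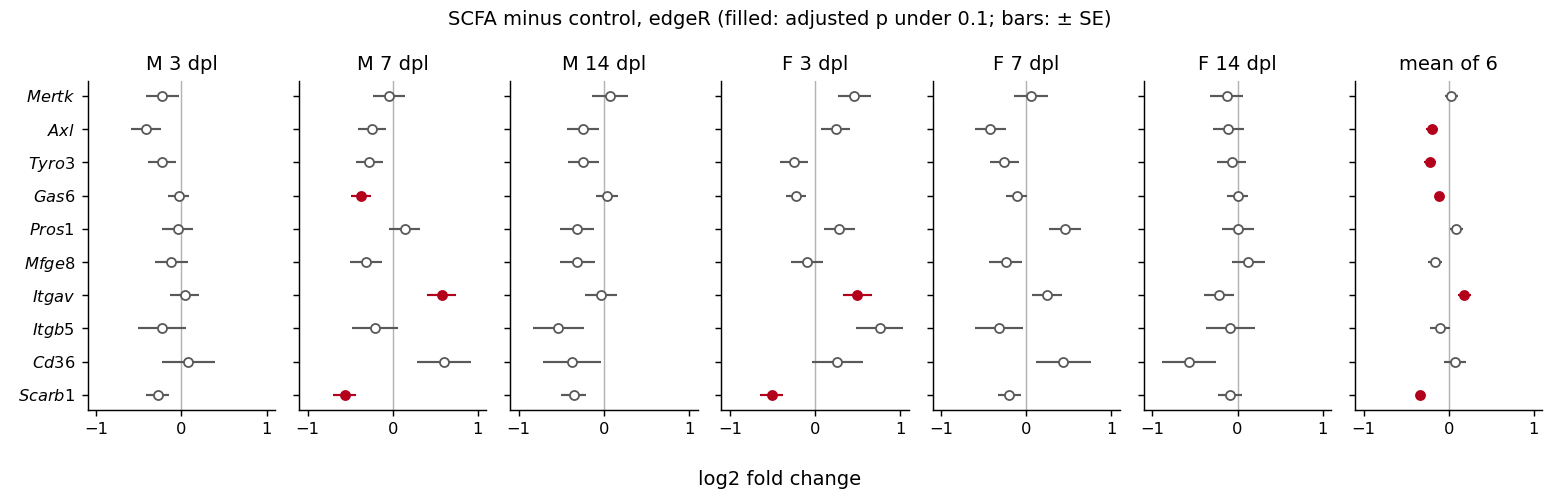
log2 fold change (x axis, SCFA minus control, ± SE, edgeR) of each member (y axis) in males (M) and females (F) at each dpl and as the mean of the 6 differences, with filled red points where the adjusted p was under 0.1. Scarb1 and Tyro3 lie left of 0 in all 6 strata, and Itgav lies furthest right in males at 7 dpl and females at 3 dpl among the called values.

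Of the TAM receptors, Tyro3 and Axl fell and Mertk did not pass. Tyro3, the member of the family known mainly from neurons, ran from 20.1 to 32.0 CPM with a median of 26.8 in controls, and from 13 to 30.4 with a median of 23.2 under SCFA. The ranges overlapped, and the lowest values, 13, 15.1 and 17.5 CPM, were all in SCFA-treated females, the last pair in libraries that stand apart. The mean log2 fold change was -0.22 ± 0.07 (SE, edgeR adjusted p = 0.0153), with a negative sign in 6 of 6 strata, between -0.27 in males at 7 dpl and -0.07 in females at 14 dpl. In no single stratum did it pass. Within the first run the medians were 26.8 and 22.4 CPM and the log2 fold change was -0.26 (edgeR adjusted p = 0.0312), and within the second run 27.4 and 26.0 CPM and -0.12 (adjusted p = 0.509). The second-run value was -0.303 in males at 3 dpl and 0.061 in females at 14 dpl. Without the 5 libraries the mean log2 fold change was -0.19 (adjusted p = 0.0406), and with the GC trend removed -0.13 (adjusted p = 0.19).

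Axl, the TAM receptor that binds only Gas6 and is induced in activated phagocytes, ran from 11.3 to 25.0 CPM in controls (median 17.8) and from 11.7 to 21.8 under SCFA (median 16.2). Its mean log2 fold change was -0.20 ± 0.07 (SE, edgeR adjusted p = 0.0365), negative in 5 of 6 strata. Females at 3 dpl were the exception, with 18.1, 12.8 and 15.3 CPM in controls and 18.6, 21.8, 17.9, 15.9 and 20.1 CPM under SCFA. In males of the same day controls had 18.7, 21.8, 22.0 and 25.0 CPM and SCFA libraries 12.2, 18.3 and 19.8. The groups overlapped in both sexes, and the difference between the responses of the sexes at 3 dpl, -0.65 ± 0.24 on the log2 scale, did not pass (edgeR adjusted p = 0.286).

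Axl kept its sign in both runs. In the first run the medians were 17.6 and 15.8 CPM (log2 fold change -0.14, edgeR adjusted p = 0.235), and in the second run 21.6 and 17.1 CPM (-0.46, adjusted p = 0.0505). Without the 5 libraries the change was -0.19 (adjusted p = 0.0693), and with the GC trend removed -0.11 (adjusted p = 0.279). Microglia markers moved with Axl over the libraries: the summed CPM of the list of 20, centred within runs, had a Pearson r of 0.74 with Axl over 43 libraries (the libraries share runs and base composition effects), and 6 of the 20 fell with SCFA and none rose, against 17% of all genes lower and 17.7% higher. The summed level was 101 to 255 CPM in controls (median 144) and 77.9 to 224 under SCFA (median 128), and the defining markers Cx3cr1, P2ry12 and Tmem119 were above 0 in every library. The part of these cells in the fall of Axl was not tested.

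Mertk, the TAM receptor for the engulfment step in pigment epithelium, was at 6.20 to 12.2 CPM in controls (median 8.58) and 5.97 to 13.4 under SCFA (median 8.42). The mean log2 fold change of 0.03 had an interval of ± 2 SE from -0.13 to 0.19 (edgeR adjusted p = 0.806). Its level was highest in SCFA-treated females at 3 dpl, where the 5 libraries had 11.3, 11.6, 10.9, 10.8 and 13.4 CPM and the 3 controls 9.30, 6.63 and 8.88. These groups did not overlap, but the log2 fold change of 0.46 ± 0.19 did not pass over all genes (edgeR adjusted p = 0.149). Without the 5 libraries that stand apart it was 0.50 (adjusted p = 0.397). In those SCFA libraries the summed markers of pigment epithelium ran from 635 to 3790 CPM, against 739 to 1100 in the controls. Over the 43 libraries Mertk had a Pearson r of 0.45 with that sum and 0.50 with the sum of microglia markers. The part of these cells in the Mertk level was not tested.

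Among the bridging ligands Gas6 passed the test and Mfge8 and Pros1 did not. Gas6, the vitamin K-dependent ligand of all TAM receptors, had 231 to 272 CPM in controls (median 249) and 158 to 312 under SCFA (median 232). The SCFA libraries reached both below and above all controls. The mean log2 fold change was -0.12 ± 0.05 (SE, edgeR adjusted p = 0.0733), where Gas6 fell by 7.83%, and negative in 4 of 6 strata.

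Among the strata, the difference in Gas6 was called in males at 7 dpl. There the 3 controls had 251, 259 and 255 CPM, and the 5 SCFA libraries 180, 232, 158, 262 and 230. The groups overlapped through 1 SCFA library, and the log2 fold change was -0.37 ± 0.12 (SE, edgeR adjusted p = 0.0254). The lowest values, 180 and 158 CPM, were in the 2 libraries with much mitochondrial mRNA. Without the 5 libraries the change there was -0.17 (adjusted p = 0.402), without SCFA replicate 3 alone -0.29 (adjusted p = 0.114), and with the GC trend removed -0.18 (adjusted p = 0.294). With the libraries the study lists it was -0.068 (adjusted p = 0.675), without the run term -0.261 (adjusted p = 0.27) and with only the 2 groups fitted -0.244 (adjusted p = 0.402).

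Over all strata, Gas6 lost its call when any of 9 libraries was left out singly (log2 fold change between -0.11 and -0.10, edgeR adjusted p up to 0.124), and it was -0.053 (adjusted p = 0.409) without the 5 libraries and -0.003 (adjusted p = 0.979) without the GC trend. Within the first run the medians were 249 and 227 CPM (-0.17, adjusted p = 0.0488). Within the second run they were 254 in controls and 268 under SCFA, over unlike strata. Over the 2 strata with both groups in that run the log2 fold change was -0.004 (adjusted p = 0.981). Exons of Gas6 overlap those of Tmem255b on the other strand, but that gene had a median count of 27 against 4608 for Gas6.

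Mfge8, the bridge to αv integrins, had 347 to 648 CPM in controls (median 445) and 245 to 499 under SCFA (median 426). Its mean log2 fold change of -0.16 ± 0.08 did not pass (edgeR adjusted p = 0.135). The lowest values, 245 and 281 CPM, were in the male SCFA libraries at 7 dpl with much mitochondrial mRNA, and the highest, 648 CPM, in the female control with Y-linked transcripts. Without the 5 libraries the change was -0.005 (adjusted p = 0.969). Pros1, the other TAM ligand and a plasma anticoagulant cofactor, had 14.0 to 27.2 CPM in controls (median 18.3) and 12.2 to 28.4 under SCFA (median 21.2). In females at 7 dpl the Pros1 groups did not overlap, with 14.8, 18.2 and 15 CPM in controls and 22.6, 24.7, 20.5 and 20.9 under SCFA, but the log2 fold change of 0.46 ± 0.19 did not pass (adjusted p = 0.228). Over all strata the Pros1 difference was 0.09 with an interval of -0.06 to 0.24 (adjusted p = 0.417). It passed in the first run alone (medians 18 and 22.3 CPM, 0.25, adjusted p = 0.0239). The second-run medians, over unlike strata, were 25.1 and 20.9 CPM, and the log2 fold change over the 2 strata with both groups was -0.17 (edgeR adjusted p = 0.421).

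Of the integrin subunits, Itgav rose and Itgb5 did not pass, and the difference between them was not tested. Itgav, the αv subunit that pairs with several β subunits, had 29.6 to 56.1 CPM in controls (median 41.6) and 34.3 to 90.6 under SCFA (median 44.5), with overlapping ranges. On average over strata the log2 fold change was 0.18 ± 0.07 (SE, edgeR adjusted p = 0.0506), positive in 4 of 6 strata.

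The rise was largest in males at 7 dpl among the called values. There the controls had 42.7, 30.8 and 35.4 CPM and the SCFA libraries 52.7, 53.8, 58.8, 43.8 and 53.4. All SCFA libraries were above all controls, and the log2 fold change was 0.57 ± 0.17 (SE, edgeR adjusted p = 0.0202). Without control replicate 2 it was 0.47 (adjusted p = 0.134), without the 5 libraries 0.52 (adjusted p = 0.104) and with the GC trend removed 0.37 (adjusted p = 0.137). It passed with the libraries the study lists (0.479, adjusted p = 0.0479). It also passed with only the 2 groups fitted (0.549, adjusted p = 0.0631) and without the run term (0.532, adjusted p = 0.0553).

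In females at 3 dpl Itgav had 47.2, 40.9 and 45.5 CPM in controls and 69.3, 90.6, 51.9, 41.7 and 53.5 under SCFA. The groups overlapped through 1 SCFA library, and the log2 fold change was 0.50 ± 0.17 (SE, edgeR adjusted p = 0.0867). The highest value was in the library with lens transcripts, and without that library the change was 0.28 (adjusted p = 0.401). 4 other single libraries, SCFA replicate 1 and control replicates 1, 2 and 3, also ended this call when left out (log2 fold change 0.42 to 0.54, adjusted p from 0.127 to 0.252), and so did the removal of the GC trend (0.43, adjusted p = 0.105), the fit without the run term (0.461, adjusted p = 0.2) and the fit of only the 2 groups (0.458, adjusted p = 0.446).

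The rise of Itgav was seen in the first run but not in the second. First-run medians were 38.8 CPM in controls and 49.9 under SCFA, with a log2 fold change of 0.32 (edgeR adjusted p = 0.00304). Second-run medians were 50.3 and 42.6 CPM, and the log2 fold change over the strata with both groups, males at 3 dpl and females at 14 dpl, was -0.27 (adjusted p = 0.119). In males at 3 dpl the second-run controls had 49.1 and 50.1 CPM and the SCFA libraries 42.2 and 41.3, while the first-run controls had 29.6 and 37.2 and the SCFA library 43.8. In females at 14 dpl the log2 fold change was -0.009 in the first run and -0.291 in the second, and the second run holds only 2 of the 6 strata. With the GC trend removed over all libraries it was 0.09 (adjusted p = 0.387), and without the 5 libraries 0.17 (adjusted p = 0.0803). Müller glia markers moved with Itgav, with a Pearson r of 0.67 for their summed CPM over 43 libraries, but so did other lists. The r was also 0.67 for markers of pericytes and smooth muscle, and 0.55 for endothelium. These coefficients include the library with lens transcripts, the highest for Itgav. Of the 14 Müller glia markers 6 rose in males at 7 dpl and 1 fell, against 22.2% of all genes called in either direction. The Müller glia sum was 6390 to 8080 CPM in those controls and 6900 to 12600 in those SCFA libraries, highest in the 2 with much mitochondrial mRNA. The part of any of these cells in the rise of Itgav was not tested.

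Itgb5, the β subunit of the outer segment receptor, had 32.6 to 68.7 CPM in controls (median 50) and 31.7 to 165 under SCFA (median 44.6). The value of 165 CPM was female SCFA replicate 2 at 3 dpl, while the other libraries of that group had 57.6, 39.8, 49.7 and 56.3 CPM and the controls 48.4, 42.0 and 36.3. That library had the highest pigment epithelium sum of all, 3790 CPM, and the summed list had a Pearson r of 0.62 with Itgb5 over 43 libraries. The r was 0.66 for markers of pericytes and smooth muscle, 0.57 for endothelium and 0.56 for microglia. All these coefficients include that library. In the pigment epithelium list Ptgds had a median of 337 CPM, against 26.8 for Rpe65, so the sum weighs its genes unequally. The part of any of these cells in the value of 165 CPM was not tested. The log2 fold change in females at 3 dpl was 0.76 ± 0.27 (edgeR adjusted p = 0.103). It passed in DESeq2 (adjusted p = 0.0595), with the GC trend removed (0.852, edgeR adjusted p = 0.0621) and in the first run alone (1.035, adjusted p = 0.0333), and it was 0.235 (edgeR adjusted p = 0.563) without the 5 libraries.

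Over all strata, leaving out that library changed the call of Itgb5. Its mean log2 fold change was -0.10 ± 0.11 (edgeR adjusted p = 0.544) with it and -0.23 (adjusted p = 0.0106) without it, but -0.11 (adjusted p = 0.184) without all 5 libraries. In males at 14 dpl the controls had 51.8, 57.0 and 56.1 CPM and the SCFA libraries 32.2, 44.6 and 37.0. The groups did not overlap, the log2 fold change was -0.54 ± 0.30 (adjusted p = 0.301), and without the 5 libraries, none of them in these groups, it was -0.51 (adjusted p = 0.0202). With the GC trend removed as well it was -0.37 (adjusted p = 0.0534). With the libraries the study lists it was -0.527 (adjusted p = 0.0179).

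Of the class B scavenger receptors, Scarb1 fell and Cd36 did not pass. Scarb1, a receptor for high-density lipoprotein that also takes up carotenoids, lies at chr5:125277087-125341094 on the minus strand (GRCm38) and had 115 to 165 CPM in controls (median 136) and 73.4 to 151 under SCFA (median 115). The mean log2 fold change was -0.33 ± 0.06 (SE, edgeR adjusted p = 4.76e-05), Scarb1 fell by 20.6%, and the sign was negative in 6 of 6 strata. The call held when any single library was left out, with log2 fold changes from -0.36 to -0.32.

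In males at 7 dpl the Scarb1 controls had 136, 140 and 142 CPM and the SCFA libraries 80.5, 128, 73.4, 130 and 122. No SCFA library reached the controls, and the log2 fold change was -0.56 ± 0.13 (SE, edgeR adjusted p = 0.00356). With the libraries the study lists for this comparison, which leave out SCFA replicates 1 and 3, it was -0.13 (adjusted p = 0.344), without the run term -0.385 (adjusted p = 0.199), with only the 2 groups fitted -0.367 (adjusted p = 0.286) and with the GC trend removed -0.576 (adjusted p = 0.00439). In females at 3 dpl the controls had 125, 115 and 144 CPM and the SCFA libraries 88.3, 79.7, 74.2, 143 and 132, with a log2 fold change of -0.51 ± 0.13 (adjusted p = 0.0324). It was -0.306 (adjusted p = 0.432) without the run term, -0.323 (adjusted p = 0.54) with only the 2 groups fitted and -0.506 (adjusted p = 0.0268) with the GC trend removed. There the 3 first-run SCFA libraries were below all controls and the 2 second-run libraries were not. All 3 controls were of the first run, so the second-run libraries had no control of their own run. Over all groups the control medians were 135 CPM in the first run and 155 CPM in the second. In males at 14 dpl the groups did not overlap either, at 145, 142 and 136 CPM against 93.8, 131 and 106 (log2 fold change -0.35 ± 0.15, adjusted p = 0.159). With the libraries the study lists, Scarb1 passed in males at 14 dpl (-0.344, adjusted p = 0.0667) and in females at 14 dpl (-0.449, adjusted p = 0.073).

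Scarb1 in males at 7 dpl and females at 3 dpl changed less without the libraries that stand apart. Without the 5 of them, the log2 fold change was -0.31 in males at 7 dpl (edgeR adjusted p = 0.16) and -0.29 in females at 3 dpl (adjusted p = 0.409). In males at 14 dpl, to which none of the 5 belongs, it was -0.33 and passed (adjusted p = 0.0673). In females at 3 dpl the call also ended without SCFA replicate 2 (-0.49, adjusted p = 0.138) or control replicate 3 (-0.42, adjusted p = 0.217). Over all strata Scarb1 stayed called without the 5 libraries (-0.24, adjusted p = 0.000766), with the GC trend removed (-0.34, adjusted p = 4.91e-05) and with both changes (-0.26, adjusted p = 0.000441). The Scarb1 transcript, at 48.5% GC, lies near the median of 49.4%, so removing the trend moved its values little and is a weak check for it. Scarb1 still had an r of 0.65 with the library's GC coefficient, and the part of that library effect was not tested. First-run medians were 135 and 105 CPM (-0.38, adjusted p = 0.00074), and second-run medians 155 and 133 CPM (-0.10, adjusted p = 0.471 over 2 strata). The second-run mean had the sign of the first run but did not pass. In that run the log2 fold change was -0.211 in males at 3 dpl and 0.01 in females at 14 dpl.

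Cd36, the lower expressed scavenger receptor, had 1.53 to 5.91 CPM in controls (median 3.10) and 1.67 to 6.47 under SCFA (median 3.25). Its mean log2 fold change of 0.07 had an interval from -0.19 to 0.33 (edgeR adjusted p = 0.717). In males at 7 dpl the groups did not overlap, with 2.77, 2.77 and 2.34 CPM in controls and 4.03, 3.62, 3.67, 4.56 and 2.79 under SCFA. That difference, 0.60 ± 0.31 on the log2 scale, did not pass (adjusted p = 0.197), and without the 5 libraries it was 0.55 (adjusted p = 0.392).

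**Figure D3:**
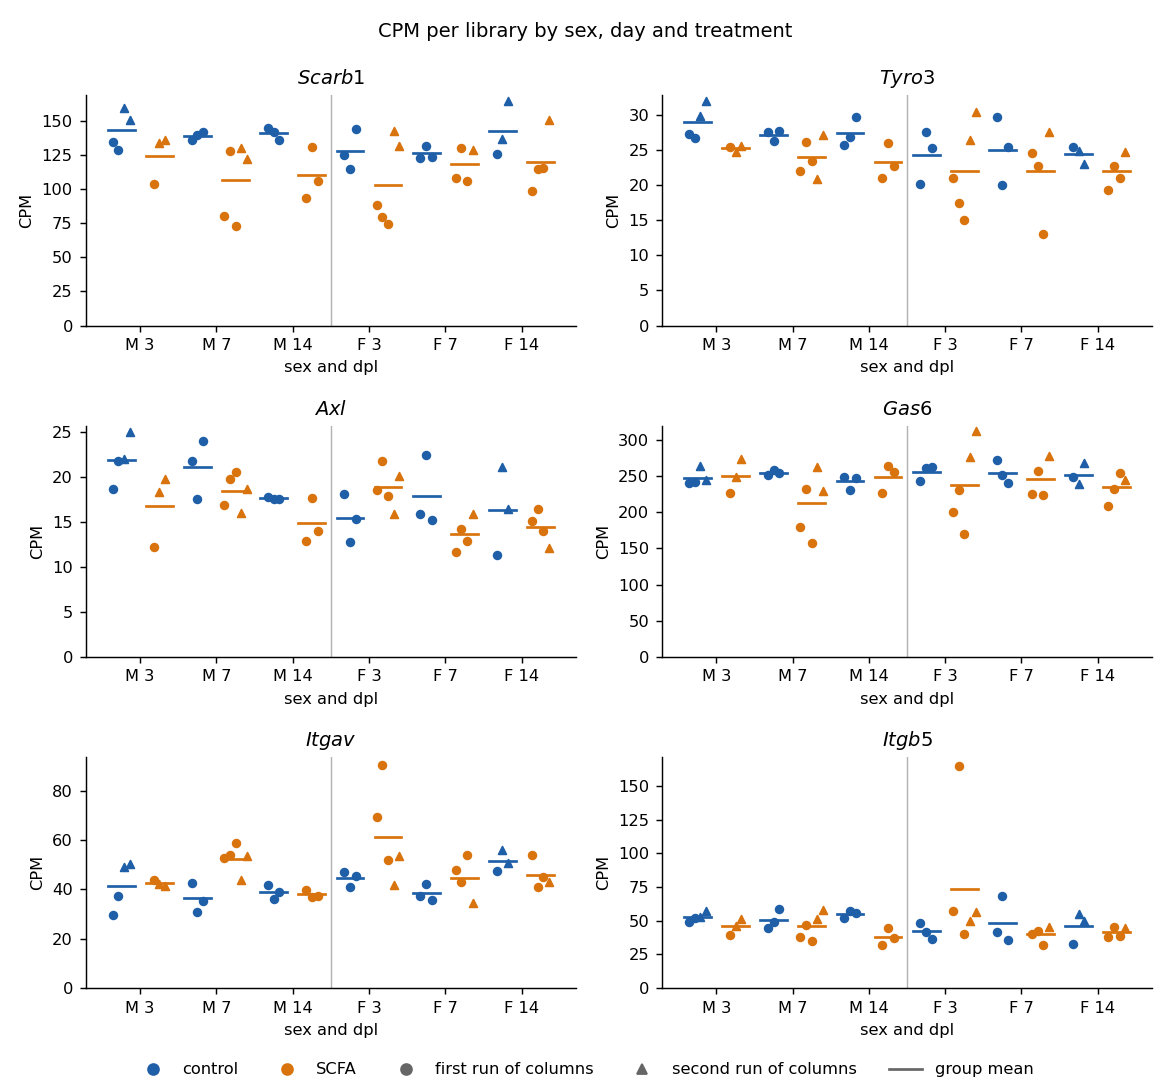
CPM per library (y axis from 0) of 6 members in males (M) and females (F) at 3, 7 and 14 dpl (x axis), controls in blue and SCFA in orange, circles for the first and triangles for the second run of columns, lines for group means. Scarb1 SCFA circles lie at 73.4 to 131 CPM and control circles at 115 to 145. Its SCFA triangles lie at 122 to 151 CPM and control triangles at 137 to 165. Itgb5 has 1 library at 165 CPM.

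**Figure D4:**
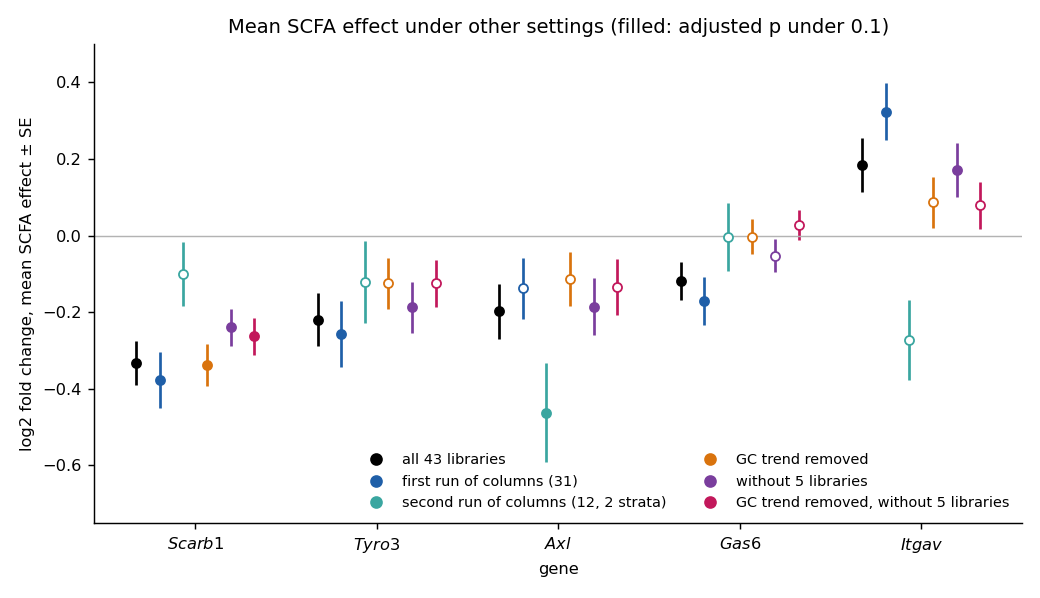
Average SCFA effect as log2 fold change (y axis, ± SE, edgeR) of the 5 members called over all strata, from all 43 libraries (black) and under the other settings named in the legend, filled where the adjusted p was under 0.1. Scarb1 stays filled in all but the second run, where only 2 strata have both groups, and Itgav lies above 0 in the first run and below it in the second.

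Counted by sex and day, SCFA calls fell on few members. In males at 7 dpl 3 of 10 passed (Gas6, Itgav and Scarb1), against 22.2% of all genes, and in females at 3 dpl 2 of 10 (Itgav and Scarb1), against 8.11%. In the 4 other strata the main edgeR fit called none, against 0.022% of genes in males at 3 dpl, 7.13% in males at 14 dpl, 0.643% in females at 7 dpl and 0% in females at 14 dpl. Of the 10 members, 2, 1, 2 and 0 had an unadjusted p under 0.05 in these strata in that order. DESeq2 called none in any of them, against 0.418%, 10.8%, 4.4% and 0.0055% of all genes. With the libraries the study lists, edgeR called Scarb1 and Itgb5 in males at 14 dpl, against 24.6% of all genes, and Scarb1 in females at 14 dpl, against 17.7%.

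The response to SCFA was not shown to differ between the sexes for any member. The interaction term called 0 of 10 at 3, 7 and 14 dpl, as it did for 0% of all genes. DESeq2 called 0 of 10 as well, against 0.214%, 0.11% and 0% of all genes. Unadjusted p-values under 0.05 numbered 3 at 3 dpl and 0 on the later days. The 3 were Mertk (-0.68 ± 0.27 on the log2 scale, male minus female response), Axl and Itgb5 (-0.99 ± 0.39), with edgeR adjusted p-values of 0.303, 0.286 and 0.301. In these genes the response at 3 dpl was positive in females and negative in males, and the female SCFA group at that day holds 2 of the 5 libraries that stand apart.

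Control males and females were compared to ask whether the members differ by sex after the lesion. edgeR called 0 of 10 members at 3, 7 and 14 dpl, against 0.0495%, 0.0275% and 4.65% of all genes. DESeq2 called 0 too, against 0.0604%, 0.0604% and 9.11%. Unadjusted p-values under 0.05 were 1 for Axl at 3 dpl, 2 for Mertk and Pros1 at 7 dpl and 1 for Itgav at 14 dpl. Axl at 3 dpl was at 18.7, 21.8, 22.0 and 25.0 CPM in male controls and at 18.1, 12.8 and 15.3 in female controls, without overlap (0.44 ± 0.18 on the log2 scale, male minus female, edgeR adjusted p = 0.94). Itgav at 14 dpl was at 41.6, 36.1 and 38.8 CPM in males and 47.3, 56.1 and 50.6 in females, also without overlap (-0.48 ± 0.20, adjusted p = 0.178), and the last 2 female libraries are of the second run.

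As a mean over treatments and days, 0 of 10 members differed by sex in edgeR and 0 in DESeq2, against 2.31% of all genes in edgeR and 5.68% in DESeq2. Axl (0.20 ± 0.07, adjusted p = 0.159), Tyro3 (0.16 ± 0.07, adjusted p = 0.226) and Itgav (-0.19 ± 0.07, adjusted p = 0.17) had unadjusted p-values under 0.05. Axl and Tyro3 had positive values, that is, male minus female above 0, and Itgav a negative one. Without the 5 libraries, which include the female control with Y-linked transcripts, Axl passed (0.225, adjusted p = 0.0676, against 7.64% of all genes).

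The members showed no called change with time after the laser. Averaged over sex and treatment, edgeR called 0 of 10 between 3 and 7 dpl, 7 and 14 dpl, and 3 and 14 dpl, against 0.0055%, 0.0604% and 2.37% of all genes. DESeq2 called 0, against 0.044%, 0.385% and 3.76%. Only Cd36 had an unadjusted p under 0.05, between 3 and 7 dpl (-0.46 ± 0.16, edgeR adjusted p = 0.66). From 3 to 14 dpl the log2 differences ran from -0.21 for Itgb5 to 0.12 for Scarb1.

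Other genes of engulfment were counted in lists that share no member with the 10. Calls in these lists and in the cell marker lists are from the main fit only. They were not checked with the GC trend removed, which left 1 of the 5 member calls of the mean SCFA effect. Of the other engulfment receptors and opsonins, 27 of the 30 listed were tested, and 2 rose and 10 fell with SCFA as the mean over strata. C1qa, a complement opsonin chain, had a median of 16.1 CPM in controls and 12.2 under SCFA (log2 fold change -0.53 ± 0.12, edgeR adjusted p = 0.000974), Stab1, a phosphatidylserine receptor of macrophages, 5.21 and 3.82 CPM (-0.45 ± 0.11, adjusted p = 0.00325), and Adgrb1, an engulfment receptor also known from synapses, 103 and 92.4 CPM (-0.29 ± 0.06, adjusted p = 0.000797). The list's median was -0.10. The C1q genes, Trem2 and Tyrobp are also in the microglia list.

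Of the 22 genes of engulfment signalling, which carry the signal from receptors to actin, 6 rose and 6 fell. Gulp1, an adaptor of engulfment receptors, was at a median of 27.4 CPM in controls and 32.6 under SCFA (0.41 ± 0.08, edgeR adjusted p = 0.000231), and Crk at 114 and 133 CPM (0.27 ± 0.05, adjusted p = 0.000295), while the Crk partner Bcar1 was at 50.9 and 41.3 CPM (-0.31 ± 0.06, adjusted p = 0.000308). Of the 17 tested genes of TAM ligand maturation and TAM regulation, 2 rose and 5 fell. Adam10, a sheddase, rose by 0.23 ± 0.06 on the log2 scale (adjusted p = 0.00309), and Ifnar1, the interferon receptor chain (-0.27 ± 0.05, adjusted p = 0.000158), and Rxra, the partner of nuclear receptors (-0.21 ± 0.05, adjusted p = 0.00129), fell.

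For phosphatidylserine exposure, 2 of 9 genes rose and 2 fell. Tmem30a, the subunit of the flippases that keep phosphatidylserine inside, was at 196 CPM in controls and 222 under SCFA in the median (0.43 ± 0.08, edgeR adjusted p = 0.000142), and the scramblase Ano6 at 8.95 and 7.10 CPM (-0.41 ± 0.09, adjusted p = 0.00102). Plscr1, named as a phospholipid scramblase, was at 11 and 12.7 CPM (0.24 ± 0.09, adjusted p = 0.0562). Of the 21 genes of LC3-associated phagocytosis and the phagolysosome, 3 rose and 7 fell, among them Rab7 (0.23 ± 0.04, adjusted p = 5.36e-05), Atg16l1 (-0.41 ± 0.06, adjusted p = 1.89e-05) and Uvrag (-0.19 ± 0.05, adjusted p = 0.00254). Each list held genes called in both directions, and all genes were called at 17.7% higher and 17% lower.

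Some listed genes changed with time, in a comparison that called 2.37% of all genes and none of the members. From 3 to 14 dpl, 10 of the 27 engulfment receptors and opsonins fell and none rose, among them C1qb (-0.79 ± 0.11, edgeR adjusted p = 4.2e-05), C1qc (-0.70 ± 0.12, adjusted p = 0.00109) and the Fc receptor Fcgr3 (-0.83 ± 0.15, adjusted p = 0.00179). Of the phagolysosome list, 4 of 21 fell, with Cd68, a lysosomal marker of macrophages, at -1.01 ± 0.20 (adjusted p = 0.00524) and the NADPH oxidase subunits Cybb and Cyba at -1.07 ± 0.26 and -0.55 ± 0.12 (adjusted p = 0.0307 and 0.0119). Lgals3, a galectin that also binds Mertk, was at -1.52 ± 0.30 (adjusted p = 0.0066). By sex, as the mean over treatments and days, each list had at most 3 called genes, and 2.31% of all genes were called. Among the listed ones were Abca1, a cholesterol exporter (0.29 ± 0.07, male minus female, adjusted p = 0.051), Anxa1 (-0.41 ± 0.11, adjusted p = 0.0729) and Rubcn (0.20 ± 0.05, adjusted p = 0.0328). Several of the genes that fell with time are microglia markers, and the difference between these genes and the members was not tested.

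The called members differed in the genes they varied with. Over the 43 libraries, with each value less the mean of its run, the 3 genes most like Scarb1 by Pearson r of log2(CPM + 1) were Bicdl1 (0.93), Ubap1l (0.93) and Abca4 (0.92), the last a photoreceptor lipid transporter. Those most like Itgav were Crim1 (0.90), Rdh10 (0.90) and Cdh2 (0.89). Axl was nearest to Pbxip1 (0.79), Selenop (0.77) and Ctsh (0.76), Gas6 to Prkcsh (0.78), the rod phosphodiesterase subunit Pde6b (0.78) and Trafd1 (0.78), and Tyro3 to Asphd1 (0.76), Gga1 (0.76) and Fbxl19 (0.76). These coefficients describe libraries that share run, depth and base composition effects.

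Among the members themselves, Gas6, Scarb1 and Mfge8 varied together, with r of 0.74 for Gas6 and Scarb1, 0.63 for Gas6 and Mfge8 and 0.63 for Mfge8 and Scarb1. Axl varied with Itgb5 (0.59), and Itgav ran against Scarb1 (-0.61). Several also followed the library's coefficient with GC content, with r of 0.65 for Scarb1, 0.69 for Mfge8, 0.57 for Tyro3, 0.51 for Gas6, 0.49 for Axl and -0.52 for Itgav. The TAM receptors did not form a group of their own: r was 0.52 for Mertk and Axl, 0.19 for Axl and Tyro3 and -0.07 for Mertk and Tyro3.

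**Figure D5:**
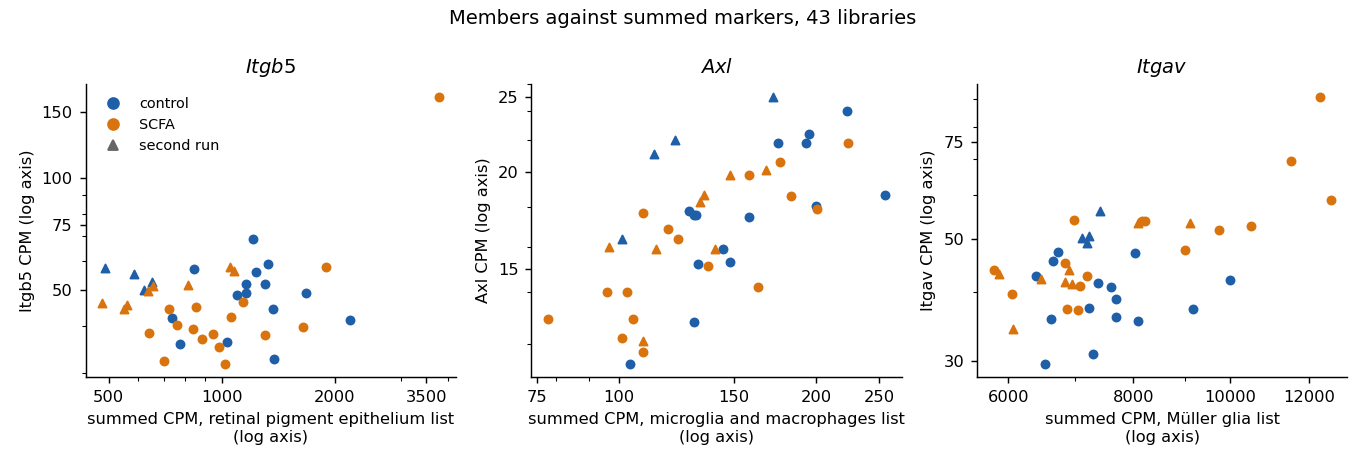
CPM of Itgb5, Axl and Itgav (y axes, log) against the summed CPM of the marker lists of pigment epithelium, microglia and macrophages, and Müller glia (x axes, log), 1 point per library, controls blue, SCFA orange, triangles for the second run. Points rise to the right in each panel, with r of 0.62, 0.74 and 0.67, and the Itgb5 library at 165 CPM is the one with the highest pigment epithelium sum of 3790 CPM. Markers of pericytes and smooth muscle, not drawn, had an r of 0.66 with Itgb5 and 0.67 with Itgav.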

How the data were processed

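The authors deposited raw read counts per gene for 43 retinal libraries. The labels name mm10 and DESeq2, and the aligner, annotation and strand setting are not given in the sources used here. Gene identifiers were named with GENCODE M21 on GRCm38 (54495 of 54532 matched), and promoter sequences came from RefSeq. Counts were filtered by filterByExpr, scaled by TMM and tested in R 4.3.3 by edgeR 4.0.16 (quasi-likelihood), with group and run of columns (31 or 12) in one fit of the 12 groups, and p-values were adjusted by Benjamini-Hochberg over the 18197 tested genes. A gene was called at an adjusted p under 0.1. The study also asked for a fold change over 1, tried here as an alternative. CPM is on the TMM scale, and SE is the log2 fold change divided by the square root of F. The members and lists were chosen with earlier results of these data known. Named genes are all members, the 3 called genes of each list with the smallest adjusted p in the mean SCFA, mean sex and 14 against 3 dpl comparisons, and the 3 genes most like each called member. p-values measure the spread between pools. The fit of the mean SCFA effect was tested on simulated data. These held no run, GC or length trend and no libraries that stand apart, so that test does not cover such effects. Fits without the GC or length trend (lowess), without the 5 libraries and of the second run were added after the data were seen. DESeq2 1.42.0 was an alternative. Figures were drawn with matplotlib 3.10.9.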

Additional observations from a re-analysis of the deposited data

Results flagged for a closer look

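Of 50 groups of 4 or 5 libraries tested for a value far from the others, 2 were flagged, and chance flags about 1 in 20. Itgb5 in female SCFA replicate 2 at 3 dpl was at 165 CPM against 39.8 to 57.6 CPM in the other libraries of its group, with a gap of 0.858 of the range (limit 0.71). That library also had the highest lens and pigment epithelium sums. Mfge8 in female SCFA replicate 2 at 14 dpl was at 410 CPM against 426 to 427 CPM, a gap of 0.907 of the range (limit 0.829) that is small beside the spread of Mfge8 in other groups.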

How the results depend on the processing

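Of the 60 member calls of SCFA by sex and day, 5 were made, and there were 1 without the run block, 3 with only the 2 groups compared, 3 with the GC trend removed, 2 without the 5 libraries, 2 with both changes, 0 with a log2 fold change over 1, and 3 to 7 when single libraries were left out. The share of all genes called moved too. In males at 7 dpl it was 22.2%, and in the first 4 of these settings 11.5%, 9.06%, 14.5% and 5.92%. In females at 3 dpl it was 8.11%, then 0.5%, 0.0123%, 8.36% and 0%. In males at 14 dpl it was 7.13%, then 1.13%, 24.6%, 3.3% and 17.1%. The calls counted for SCFA by sex and day were not always those of the main fit. Without the 5 libraries none of these was kept, and the 2 calls were Scarb1 and Itgb5 in males at 14 dpl. The same 2 were called with only the 2 groups compared, beside Itgav in males at 7 dpl. With the GC trend removed Scarb1 kept its 2 calls, and Itgb5 in females at 3 dpl was new. For the mean SCFA effect 5 of 10 became 1 with the GC trend removed, 1 with the 5 libraries left out as well, 1 in the second run only, 3 at an adjusted p under 0.05, 0 with a log2 fold change over 1, and 4 to 6 without single libraries. Of all genes 34.7% were called in the main fit, and 25.5%, 21.6% and 14.5% in the first 3 of these settings. Gas6 reversed to 0.028 (edgeR adjusted p = 0.695) without the GC trend and the 5 libraries, and Itgav to -0.273 (adjusted p = 0.119) in the second run. Where 0 members were called in the main fit, some settings made single calls, given here with the share of all genes called. Between control sexes, 1 was called with the libraries the study lists (Itgb5 at 7 dpl, 6.59%). Without single libraries it was 0 to 1 (Itgav at 14 dpl without male control replicate 1 at 3 dpl, 7.2%). In the mean sex difference, 1 was called with no filter (Itgav, 2.55%) or without the 5 libraries (Axl, 7.64%). Without single libraries it was again 0 to 1 (Axl without female control replicate 2 at 14 dpl, 3.1%). In the sex difference of the response, 1 was called with no filter (Itgb5 at 3 dpl, 2.72%) and 1 with the replicate block (Axl at 3 dpl, 1.9%). Between days 0 were called in any fit. The causes were not tested. The replicate numbers did not pair the libraries: same-numbered deviations had a mean correlation of -0.00524 over 27 pairs, 7 of them over 0.1, against 0.00181 for 78 other pairs. With the replicate block the mean SCFA effect had 6 calls, against 35.2% of all genes, and SCFA by sex and day 6. Cd36, with the fewest counts, had the widest interval of the mean SCFA effect.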
